A study of Homo sapiens with 15 samples.

Results

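The mRNAs of 77 genes for proteins of the cytosolic ribosome were measured in MDA-MB-231 cells, a human triple-negative breast cancer line, after 6 h with ZJ-101, a synthetic compound modelled, in simpler form, on superstolide A from a marine sponge. The genes were chosen by symbol: those named RPL or RPS with a number, alone or with the ending A, X, L, AL or L1, and RPLP0, RPLP1, RPLP2 and RPSA. Their normalized count had to average 100 or more over the libraries. Of 59608 genes in the table, 85 had such a symbol and 77 passed, of which 44 belong to the large subunit and 27 to the small subunit, while 6 are paralogs (RPL7L1, RPL22L1, RPL26L1, RPL36AL, RPL39L and RPS27L). Cells grew in 2D culture in 10% serum and received either 0.1% DMSO as vehicle or ZJ-101 at 0.5, 5, 50 or 500 nM. Each of these 5 groups had 3 libraries of poly-A RNA, described as biological replicates, and all comparisons with vehicle share the same 3 DMSO libraries.

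A ribosome is built from rRNA and a set of small basic proteins, most of them present in 1 copy per subunit, so their mRNAs are usually kept at matched levels. Most of these mRNAs begin at a C followed by a run of pyrimidines, the TOP motif (terminal oligopyrimidine), through which mTOR signalling and LARP1 set their translation. Their levels therefore tend to be steady, and much of their control is known to act on translation and not on the amount of mRNA. Assembly takes place mainly in the nucleolus and needs RNA polymerase I and a large group of assembly factors.

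At the start sites listed by RefSeq (GRCh38.p14), 42 of the 57 canonical members with an entry began with C and at least 5 pyrimidines in a row, which is 73.7%. Where a gene had several listed starts, the start with the longest run was used, for all sets of genes and for the windows. The same letters stood at the start of 7.27% of the tested genes with an entry and 5.14% of all symbols with one. Among the paralogs, 1 of 5 had such a start, namely RPL22L1. The windows here run from 40 bases before to 20 bases from the start, 5′ to 3′ on the gene's strand, with the pyrimidine run in capitals. They show abundant members with the run (RPS6, RPLP0, RPSA), a member without it (RPL27) and the paralogs RPL22L1, RPL7L1 and RPS27L.
RPS6, chr9:19380217-19380276, minus strand: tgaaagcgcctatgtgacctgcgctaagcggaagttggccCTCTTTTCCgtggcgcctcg
RPLP0, chr12:120201092-120201151, minus strand: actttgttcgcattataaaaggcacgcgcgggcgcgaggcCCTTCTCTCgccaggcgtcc
RPSA, chr3:39406680-39406739, plus strand: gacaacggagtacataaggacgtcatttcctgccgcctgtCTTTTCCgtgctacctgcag
RPL27, chr17:42998379-42998438, plus strand: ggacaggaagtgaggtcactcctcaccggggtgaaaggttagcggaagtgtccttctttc
RPL22L1, chr3:170870176-170870235, minus strand: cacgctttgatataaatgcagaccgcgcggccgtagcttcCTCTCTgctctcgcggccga
RPL7L1, chr6:42879576-42879635, plus strand: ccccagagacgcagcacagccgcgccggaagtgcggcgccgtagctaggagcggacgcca
RPS27L, chr15:63157458-63157517, minus strand: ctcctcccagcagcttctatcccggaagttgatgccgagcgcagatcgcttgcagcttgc

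The run was 9 bases long in RPS6 and RPLP0, 7 in RPSA and 6 in RPL22L1. It reached 19 bases in RPL39. RPL7L1 and RPS27L begin with another base than C, so no run was counted. A match of letters at an annotated start is a description, and these data do not show where transcription began.

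The authors divided the reads of each library by a DESeq2 size factor, and these normalized counts are the unit of all levels here. Whole reads could be recovered from them and lay between 12415519 and 15284762 per library. The 10 markers listed for the line, among them the epithelial keratins KRT7 (6969) and KRT18 (4427), averaged from 692 (S100A4) to 14566 (VIM) normalized counts. Of 8 luminal and epithelial markers listed as low in it, ESR1 (0.744), PGR (13.7) and FOXA1 (22.1) were low, CDH1 and GATA3 averaged 147 and 145, EPCAM 290 and ERBB2 1211, while KRT19, at 6324, was not low. Of the listed immune markers, PTPRC averaged 1.43, CD3E 0, CD79A 1.76 and CD14 19.04. The endothelial markers VWF and CDH5 averaged 0.665 and 1.25, but PECAM1 averaged 251. The fibroblast markers DCN and LUM averaged 0.396 and 2.48, and PDGFRB averaged 48.6. Chi-square values of replicate pairs per degree of freedom, where sampling noise alone gives about 1, ranged from 2.04 to 6.27, except for the 2 pairs that include replicate 2 at 0.5 nM (11.1 and 16.6). That library stood apart in the members as well, as described with the lowest dose.

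The 77 members took between 4.22% and 5.35% of all reads on genes, that is 538491 to 727520 reads per library. Their share was 4.35% ± 0.116 (SD, n = 3) in DMSO, 4.85% ± 0.432 at 0.5 nM, 4.49% ± 0.181 at 5 nM, 4.39% ± 0.151 at 50 nM and 4.42% ± 0.0956 at 500 nM. The spread at 0.5 nM came from replicate 2, with 5.35% against 4.62% and 4.58% in the other two. Intervals and spreads of this kind cover only these libraries, and in bulk RNA fewer cells expressing a gene and less of its RNA per cell cannot be told apart.

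**Figure D1:**
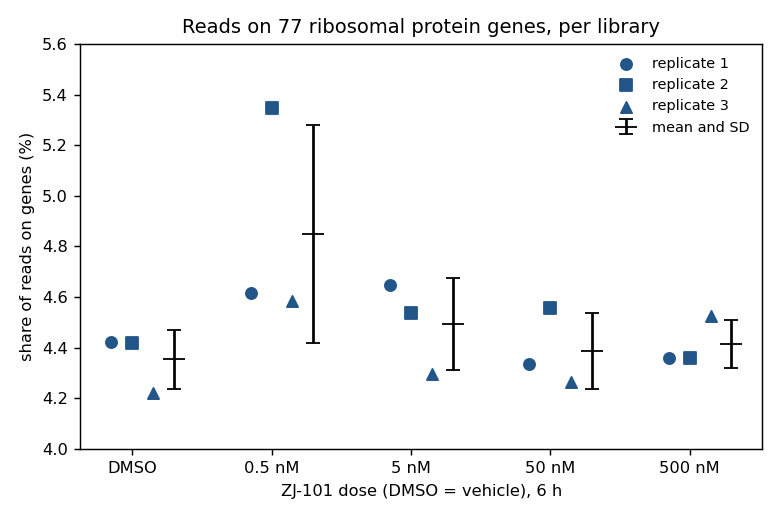
Share of reads on genes (%) that fell on the 77 ribosomal protein genes, by ZJ-101 dose; each point is 1 library and the bar gives the mean and SD of 3. The axis starts at 4%. The highest library is 0.5 nM replicate 2 at 5.35%, and the other 14 lie between 4.22% and 4.65%.

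The most abundant member was RPLP0, the base of the acidic stalk of the large subunit, with a mean of 33709 normalized counts, followed by RPL8 (22712), RPS2 (22271), RPL6 (19428) and RPL13A (17564). Compared per kilobase of transcript in DMSO, RPLP0 led with 29054 ± 1085 (SD, n = 3) normalized counts per kb. RPS2, a protein at the mRNA entry of the small subunit, followed with 22572 ± 682, and RPL35 with 21144 ± 657. RPL8 (20521 ± 827) and RPL6 (20155 ± 305) came next, and the mean ± SD of RPL8 overlapped that of RPL35 and that of RPL6. All genes were measured in the same 3 libraries, so these SDs do not test the order. The per-kb levels covered a wide range, down to 364 ± 23.9 for RPL26, 212 ± 9.53 for RPS15A, 159 ± 7.19 for RPL22L1 and 100.4 ± 6.97 for RPS27L. The length is that of 1 annotated canonical transcript per gene, which is 6110 bases for RPS27L and 2203 for RPS15A, so the per-kb level is lower than the true one where the cells make a shorter form.

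Just inside the limit of 100 lay RPL26 with a mean of 207 normalized counts, RPL39L with 332 and RPL22L1 with 334. Among the symbols left out, RPS9 had a mean of 65.0, RPL17 59.7, RPL36A 11.1, RPS10 8.96, RPS18 1.93, RPL3L 0.856 and RPL10L 0. RPL3L and RPL10L are paralogs known mainly from muscle and testis, but the others named here are canonical proteins that every cell uses. RPS9 and RPS18 have 9 and 4 copies on alternate contigs of the genome with at least 99% identity. The exons of RPL17 and RPS10 overlap other annotated genes over 96.9% and 84.0% of their length. The readthrough genes RPS10-NUDT3, RPL17-C18orf32 and RPL36A-HNRNPH2 were themselves listed at 0 in every library. The part of such copies and overlaps in these low values was not tested.

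Many ribosomal protein genes have processed pseudogenes, and this applied to most members. A near-identical locus elsewhere in the genome (at least 95% identity over at least 50% of the coding part with 100 bases on each side) was found for 53 members, and for 34 of them the locus was a named gene that was itself tested. Relative to the member's count, the count of such genes was 70.7% for RPL26, 21.5% for RPS28, 21.0% for RPL7, 14.4% for RPS7, 13.7% for RPL22, 12.1% for RPSA and 10.0% for RPL21. Those 7 members had the largest such counts, their levels are uncertain, and how reads were divided between near-identical copies was not tested. The 1237 pseudogene rows together took 0.120% to 0.157% of the reads in a library. For 4 members (RPL10, RPL26, RPL30 and RPL38) over 50% of the exon bases lie inside another annotated gene.

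Each dose was compared with DMSO across all 13561 tested genes with limma on log2(normalized count + 1), and genes with a Benjamini-Hochberg adjusted p under 0.05 are called changed. At 500 nM, the highest dose, the ribosomal protein mRNAs stayed near their DMSO level, and 1 of 77 was called, RPL7L1. In the same comparison 17.8% of all tested genes were called. The median log2 fold change of the members was 0.013, which is 1.01-fold, and that of all tested genes 0.0027. The members' values ranged from -0.14 to 0.22, with 49 above and 28 below 0. The middle 50% of the members lay between -0.017 and 0.036, and that of all tested genes between -0.12 and 0.13.

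The 95% interval of a member's log2 fold change reached 0.13 to either side in the median. All 77 intervals lay inside a 1.5-fold change in either direction, at each dose and for each step between doses. RPLP0, for example, had a difference of 0.037 at 500 nM with an interval of -0.093 to 0.17. RPS6, a phosphorylation target of the S6 kinases in the small subunit, had 0.023 with an interval of -0.085 to 0.13. RPL5 and RPL11, which bind MDM2 when ribosome assembly fails and so link it to p53, had values of 0.044 (SE 0.055, limma adjusted p = 0.66) and -0.041 (SE 0.059, limma adjusted p = 0.71).

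RPLP0 had 32528, 33034 and 30751 normalized counts in DMSO and 33376, 31716 and 33714 at 500 nM. RPS6 had 9898, 9967 and 9270 in DMSO and 9592, 9961 and 10046 at 500 nM. In both genes the groups overlapped. Libraries of DMSO and 500 nM did not overlap for 11 members, with 10 above and 1 below, while 18.9% of all tested genes lay above and 19.6% below without overlap.

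**Figure D2:**
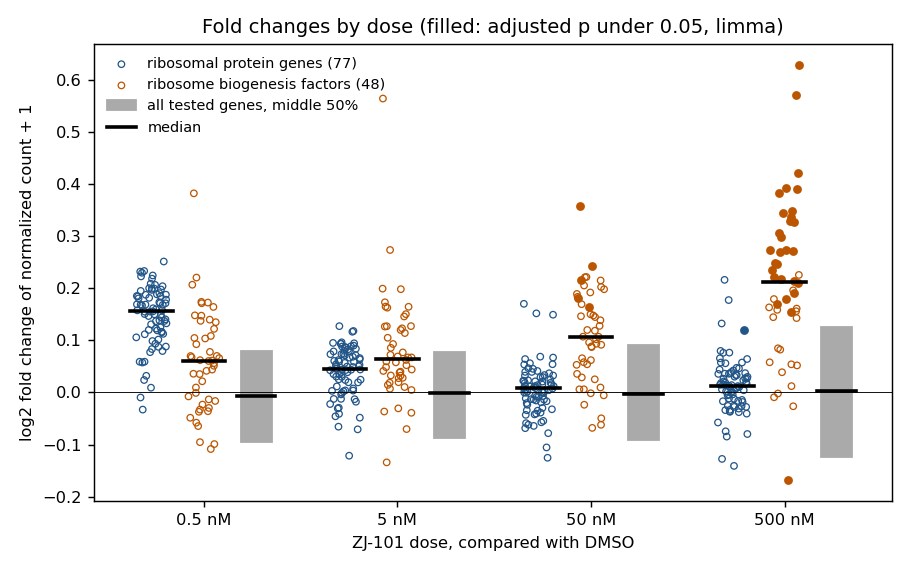
Log2 fold change against DMSO by dose for the 77 ribosomal protein genes, the 48 tested ribosome biogenesis factors and all tested genes (grey box, middle 50%; black lines, medians; filled points, adjusted p under 0.05 by limma). At 500 nM 1 ribosomal protein gene is filled, RPL7L1, and the ribosome biogenesis factors have a median of 0.21.

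RPL7L1 encodes a nucleolar paralog of RPL7 that is found in precursors of the large subunit. It had 8375, 8334 and 8296 normalized counts in DMSO, 8345, 8566 and 8513 at 0.5 nM, 8754, 8657 and 8398 at 5 nM, 8972, 8659 and 8568 at 50 nM, and 9040, 9151 and 8968 at 500 nM. All libraries at 5, 50 and 500 nM lay above all DMSO libraries, and those at 500 nM lay above every library of a lower dose, except that 50 nM replicate 1 (8972) passed the lowest of them (8968). The rise at 500 nM was 0.12 on the log2 scale (SE 0.036, limma adjusted p = 0.025), which is 1.09-fold. The slope over the rank of the dose was 0.028 per step (SE 0.0084, limma adjusted p = 0.024), where 17.6% of all tested genes were called. The SD of the count in DMSO was 39.5 normalized counts. The call at 500 nM was lost when any 1 DMSO or 500 nM library was left out (adjusted p 0.054 to 0.090) or when no filter on low genes was used (0.098). The slope was not called without any 1 of the 500 nM libraries (adjusted p 0.056 to 0.078) or with no filter (0.11).

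The other 5 paralogs were not called at any dose. RPL22L1, a paralog of RPL22, had 308, 313 and 287 normalized counts in DMSO and 326, 367 and 363 at 500 nM, which did not overlap, but the difference of 0.22 had an SE of 0.13 (limma adjusted p = 0.28). RPL39L, a paralog of RPL39 known from the testis, had 336, 357 and 317 in DMSO and 305, 302 and 316 at 500 nM (log2 fold change -0.13, limma adjusted p = 0.44). RPS27L, a p53 target gene, ranged from 568 to 652 in DMSO and from 479 to 609 at 500 nM, so its groups overlapped (log2 fold change -0.14, limma adjusted p = 0.38). RPL26L1 and RPL36AL had values of -0.080 and -0.085 at 500 nM. The median of the 6 paralogs at 500 nM was -0.082, that of the 71 canonical members 0.014.

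**Figure D3:**
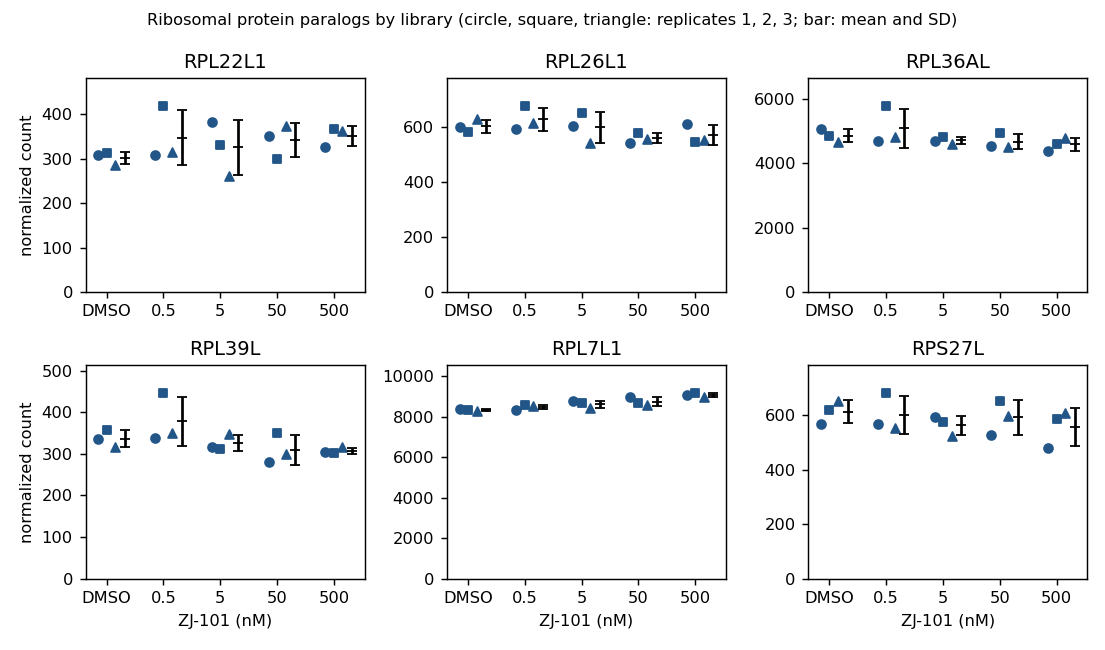
Normalized count of the 6 ribosomal protein paralogs in each library by ZJ-101 dose, with the mean and SD of 3 libraries beside the points; every axis starts at 0. RPL7L1 goes from a mean of 8335 in DMSO to 9053 at 500 nM, and none of the other 5 was called.

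Both subunits had values near 0. The median log2 fold change at 500 nM was 0.012 for the large and 0.018 for the small subunit members. Members of universally conserved families had medians of 0.030 (large subunit) and 0.036 (small subunit). Those listed in families without a bacterial counterpart had 0.0092 and 0.0078. The sum over the small subunit members divided by that over the large subunit members was 0.495 ± 0.0029 (SD, n = 3) in DMSO and 0.495 ± 0.0019 at 500 nM, and its group means at the other doses lay between 0.489 and 0.497. RPLP1 and RPLP2, the acidic proteins of the stalk, had values of -0.036 and -0.031. RPSA, the laminin receptor precursor of the small subunit, had 0.027.

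Members were also divided by features that the symbol rule did not use, with no test. At 500 nM the 42 canonical members with a pyrimidine run at the start had a median of 0.0059 and the 15 without it 0.021. The 27 canonical members with a snoRNA gene in their introns had a median of 0.011 and the 44 without one 0.019. With and without an expressed near-identical gene, medians were 0.017 for 34 members and 0.0092 for 43. FAU and RACK1, ribosomal proteins under other names, had values of 0.030 and 0.011, and neither was called. Among 15 tested translation factors and other TOP mRNAs none was called by limma at 500 nM either, where 17.8% of all tested genes were.

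At 50 nM none of the 77 members passed the threshold, where 6.00% of all tested genes did, and 1 member had an unadjusted p under 0.05, against 17.4% of all tested genes. edgeR and DESeq2 on the recovered reads also called 0. The median was 0.0076, that of all tested genes -0.0023. RPS15A, a protein of the small subunit, had the smallest p, with 490.1, 458 and 450.5 normalized counts in DMSO and 510.4, 489 and 556 at 50 nM (0.15, SE 0.070, limma adjusted p = 0.27). Between 5 and 50 nM, where 5.01% of all genes were called and no member was, it again had the smallest p (0.22, limma adjusted p = 0.091), after 469, 446 and 422 at 5 nM. RPL29 was next in that step (-0.18, limma adjusted p = 0.13). An unadjusted p under 0.05 was seen for 3 members there, 1 higher and 2 lower at 50 nM, against 17.6% of all tested genes, and edgeR and DESeq2 called 0. Libraries at 50 nM did not overlap those of DMSO for 1 member above (RPL7L1) and 1 below (RPL26L1), against 11.6% and 13.2% of all tested genes.

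At 5 nM no member was called among 2.18% of all tested genes, and no member had an unadjusted p under 0.05, against 12.9% of all tested genes. edgeR and DESeq2 called 0 as well. The median was 0.046, with 62 members above and 15 below 0, and 9 members lay above DMSO without overlap, where 10.5% of all tested genes did. Among them were RPL13 (13526, 13449 and 12496 normalized counts in DMSO, 14937, 14260.3 and 13907 at 5 nM) and RPL3, which reaches towards the peptidyl transferase centre (15549, 15959 and 14897 in DMSO, 16542, 16649.9 and 16043 at 5 nM). Their differences were 0.13 (SE 0.066) and 0.086 (SE 0.045), with limma adjusted p = 0.45 for both. The median member deviation from the DMSO mean was 0.095 and 0.062 in replicates 1 and 2 and -0.017 in replicate 3. Without replicate 3, the library with the lowest member values of that dose, 46 members lay above DMSO, where 16.8% of all tested genes did. Without replicate 1 it was 10 members above and 2 below, and without replicate 2 it was 9 above and 1 below. In those 2 cases 15.8% and 15.5% of all tested genes lay above. Without DMSO replicate 3 the median at 5 nM was 0.021 and without 5 nM replicate 3 it was 0.079.

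At 0.5 nM, the lowest dose, none of the 77 members was called by limma, where 1.17% of all tested genes were, although nearly all had a mean above that of DMSO. The median log2 fold change was 0.16, which is 1.11-fold, against -0.0069 for all tested genes. Of the 77 members, 75 had a value above 0, and 46 had an unadjusted p under 0.05, each of them higher, as did 6.10% of all tested genes in that direction. edgeR called 0 and DESeq2 called 9, among them RPL24, RPL27, RPLP0 and RPS6, where 0.673% of the genes that it gave an adjusted p were called higher.

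RPS6 and RPL27 were among the members with the smallest p at 0.5 nM. RPS6, whose DMSO values are given with the highest dose, had 10941, 11840 and 10705 normalized counts at 0.5 nM (0.20, SE 0.051, limma adjusted p = 0.072). RPL27 had 8496, 8644 and 8028 in DMSO and 9667, 10709.5 and 9249.9 at 0.5 nM (0.23, SE 0.064, limma adjusted p = 0.092). In both genes the groups did not overlap and the second 0.5 nM library was the highest of all 15. This absence of overlap, with 0.5 nM above, was seen for 42 members and for 7.43% of all tested genes.

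Replicate 2 at 0.5 nM was the highest of the 15 libraries for 75 of the 77 members. The exceptions were RPL26 and RPL7L1. Its median member deviation from the DMSO mean was 0.31 on the log2 scale, and all 77 members lay above that mean. Replicates 1 and 3 at 0.5 nM had 0.078 and 0.076, while the DMSO libraries had 0.029, 0.022 and -0.051. Without replicate 2 the median log2 fold change fell to 0.078, 22 members were higher with an unadjusted p under 0.05 (5.78% of all tested genes were), and limma again called 0. Without replicate 3, 13 were called, all higher, where 0.833% of all tested genes were called higher. The 2 libraries left without replicate 2 lay above all DMSO libraries for 42 members and below for 2, where 14.8% of all tested genes lay above.

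**Figure D4:**
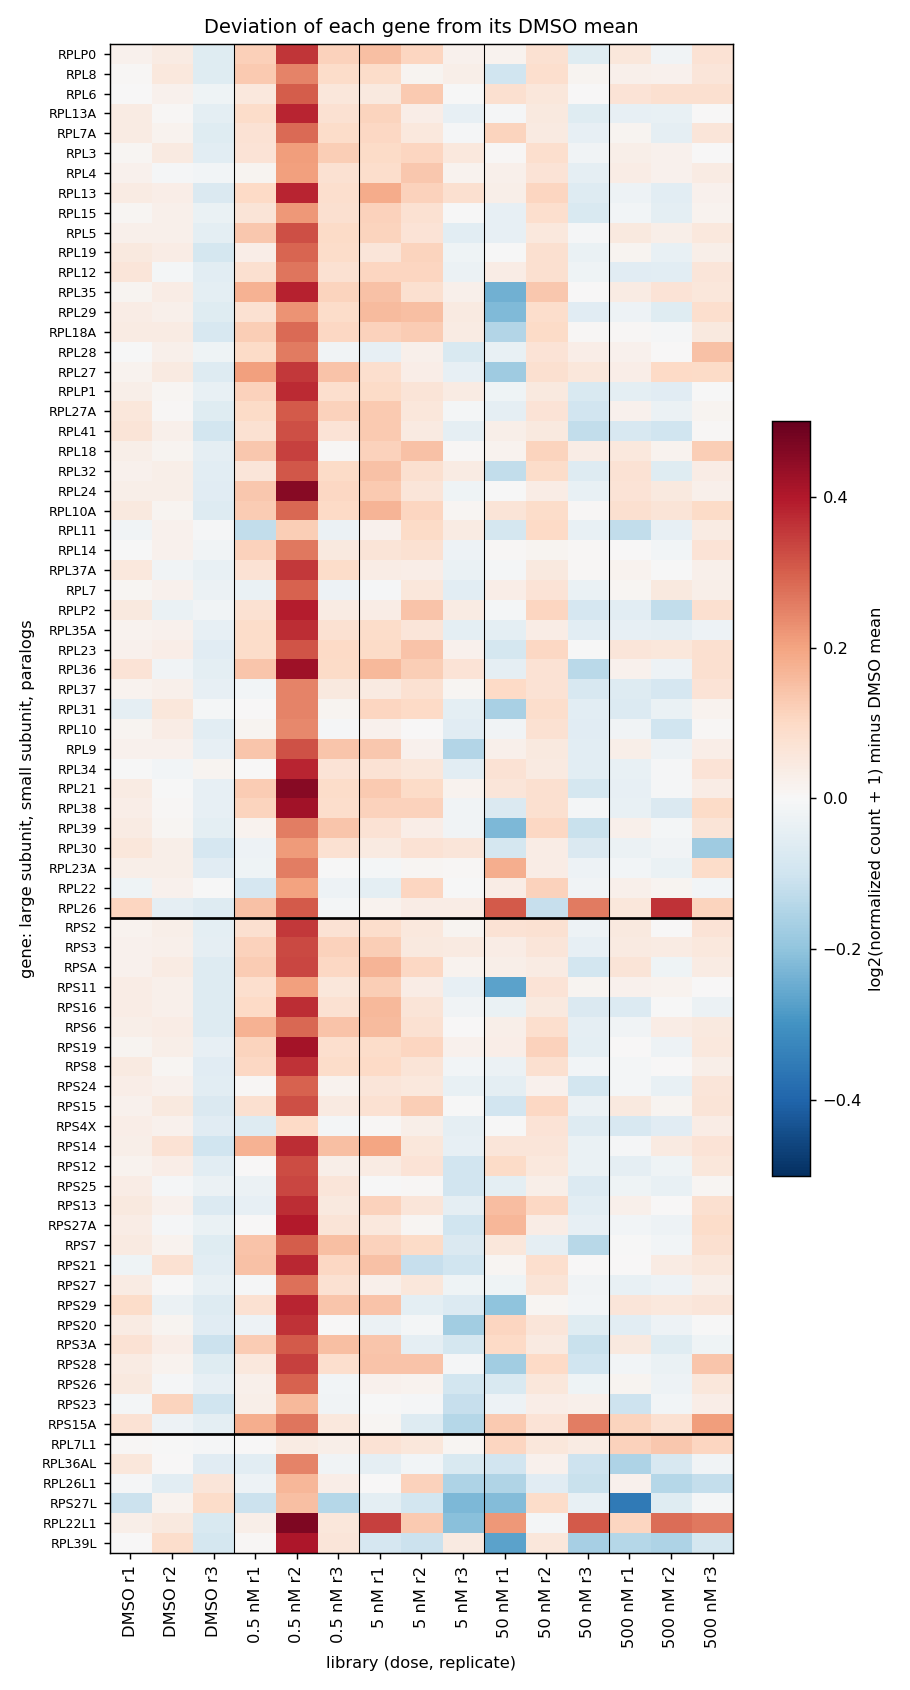
Deviation of log2(normalized count + 1) from the gene's DMSO mean for 76 of the 77 ribosomal protein genes (rows: large subunit, small subunit, paralogs, each sorted by mean level) in 15 libraries (columns, by dose and replicate). In the column of 0.5 nM replicate 2 every gene lies above its DMSO mean, RPL7L1 only slightly, with a median of 0.31 over the 77. Replicates 1 and 3 of that dose have medians of 0.078 and 0.076.

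Other short mRNAs were high in that library too. The members have short transcripts, with a median of 921 bases against 3275 for tested genes, and 58 of the 77 fall in the shortest of 4 length classes of tested genes, each with about the same number of genes. In replicate 2 at 0.5 nM the other genes of the shortest class had a median deviation of 0.17, and those of the longest class -0.18. In the other 14 libraries the shortest class lay between -0.023 and 0.052. Nuclear genes for short proteins of the respiratory chain, a list of short mRNAs with another function, had a median deviation of 0.35 in that library. They had a log2 fold change of 0.15 at 0.5 nM, with 0 of 35 called by limma. An unadjusted p under 0.05 was seen for 15, each of them higher, as for 6.10% of all tested genes in that direction. This list was not matched to the members in abundance. The 79 tested ribosomal protein pseudogenes had a median of 0.18. After a correction of each library for length and GC content, the members' median at 0.5 nM was 0.098 and 3 were called, among them RPS14 and RPS3, where 0.833% of all genes in that fit were called higher. The part of transcript length in the members' difference was not tested beyond this.

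**Figure D5:**
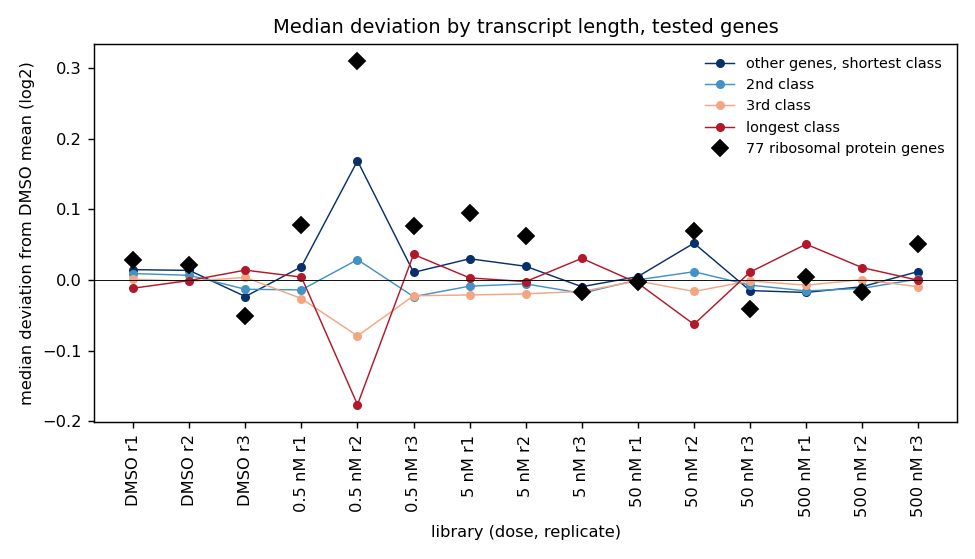
Median deviation from the DMSO mean (log2) in each library for other tested genes in 4 classes of transcript length (coloured lines) and for the 77 ribosomal protein genes (black diamonds). In 0.5 nM replicate 2 the classes fan out from 0.17 (shortest) to -0.18 (longest) and the members stand at 0.31.

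Between 0.5 and 5 nM no member was called (0.118% of all tested genes were), but 24 had an unadjusted p under 0.05, each of them lower at 5 nM (4.14% of all tested genes were), and the median was -0.10. RPS21, RPS15A and RPL27 had the smallest p, with values of -0.23, -0.23 and -0.21 and limma adjusted p = 0.42 for each. edgeR and DESeq2 called 0. Between 50 and 500 nM, where 2.28% of all tested genes were called, no member was called by any of the 3 tools, none had an unadjusted p under 0.05 (13.1% of all tested genes had), and the median was 0.00072. RPS29, at 0.13 (limma adjusted p = 0.50), had the smallest p of that step.

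Across the dose ranks, RPL7L1 was the only member called among all 15 libraries. The median slope was -0.013 per step. Over the 12 treated libraries alone 10 members had a falling slope past the threshold (among them RPL13, RPL21, RPL35A, RPLP1, RPS16 and RPS6) and RPL7L1 was no longer called (0.031, limma adjusted p = 0.10). In that fit 17.8% of all tested genes were called and 8.57% fell. Without replicate 2 at 0.5 nM, 1 of those falling slopes passed, that of RPLP1 (-0.050, SE 0.014, limma adjusted p = 0.019), where 8.53% of all tested genes fell.

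The SD of log2 values within a group had a median of 0.090 over the members, 0.11 over all tested genes and 0.064 over the 3452 tested genes with a mean of at least 1000. Without replicate 2 at 0.5 nM it was 0.060, 0.094 and 0.053.

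Beside the structural proteins stand the factors that assemble them. Of 50 listed ribosome biogenesis factors 48 were tested, and at 500 nM 28 rose, 1 fell and 19 did not pass, beside 7.69% of all tested genes that rose and 10.1% that fell. Their median log2 fold change was 0.21. No test compared this list with the members. The largest rises were those of MDN1, the dynein-like ATPase that strips factors from the large subunit (0.63, SE 0.19, limma adjusted p = 0.024), RRS1, which helps to bring RPL5 and RPL11 into the large subunit (0.57, SE 0.078, limma adjusted p = 3.1e-05), and UTP20, a factor of early small subunit assembly (0.42, SE 0.091, limma adjusted p = 0.0027).

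RRS1 had 297, 272 and 303 normalized counts in DMSO and 441, 422 and 433 at 500 nM. UTP20 had 1422, 1398 and 1421 in DMSO and 2129, 1781 and 1795 at 500 nM. Both were higher at 500 nM in every library. MDN1 did not follow the order of the doses, with 0.38 at 0.5 nM, 0.56 at 5 nM and 0.12 at 50 nM, none of them called. Its slope over the dose ranks was not called either (limma adjusted p = 0.20). The factor that fell was NMD3, the export adapter of the large subunit, with 1164, 1229 and 1216 in DMSO and 1063, 1114 and 1036 at 500 nM (-0.17, SE 0.054, limma adjusted p = 0.037), a call that was lost without DMSO replicate 2 or 3, without 500 nM replicate 1 or 3, with no filter and with the length and GC trend removed. At 50 nM 5 of the list rose and none fell, where 6.00% of all tested genes were called in either direction. The count of rises was 18 at 500 nM without DMSO replicate 3 and between 1 and 11 at 50 nM over the alternatives. No share of all tested genes is given for those fits, so these counts show only how the list's own calls moved.

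Of the 8 tested genes of the RNA polymerase I machinery, POLR1A (0.41), POLR1B (0.41) and POLR1E (0.41) rose at 500 nM and UBTF, which binds the rRNA gene promoter, fell by 0.21 (limma adjusted p = 0.0061, 3.3e-05, 3.8e-05 and 0.0023). Among the 6 chaperones that guard single ribosomal proteins GRWD1, which binds RPL3, rose by 0.26 (limma adjusted p = 0.0049). A list of 9 regulators held LARP1, MTOR, RPTOR, RPS6KB1, RPS6KB2, EIF4EBP1 and EIF4EBP2, with MYC and MAF1 beside them. LARP1 (0.26, limma adjusted p = 0.0021) and the transcription factor MYC (0.29, limma adjusted p = 0.00017) rose. MAF1, a repressor of RNA polymerase III, fell (-0.20, limma adjusted p = 0.011), and none of the others on that list was called. MYC had 1832, 1746 and 1643 normalized counts in DMSO and 2186, 2144 and 2050 at 500 nM, which did not overlap. Short mRNAs of the respiratory chain had 0 of 35 called by limma at 500 nM, where 17.8% of all tested genes were called.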

How the data were processed

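The signal values used here are normalized counts that the authors deposited: HISAT2 aligned the paired reads to hg38, htseq-count assigned them to genes, and DESeq2 size factors scaled the libraries. Tool versions and strandedness are not given in the sources used here. Replicates are labelled as separate samples of a group, so p-values measure the spread between these samples. The 1 line without a gene was left out. Each library has a smallest step, and 100.0% of the values were whole multiples of it within 0.001, which gives back the reads. Size factors were 0.916 to 1.13. Mitochondrial genes took 0.889% to 2.06% of reads.

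The main test was limma with a trend of the variance on log2(normalized count + 1), for 13561 genes averaging 10 or more, with the 5 groups in 1 fit and Benjamini-Hochberg adjustment over all of them. A second fit gave the slope over dose ranks. The tests were tested on simulated data. Fold changes on this scale understate those of low genes. A few genes that enter the counts and medians are not reported here by name. The members, lists and named genes were chosen with earlier results of these data known. Named are members with the smallest p in a comparison, the most and least abundant, those near the limit of 100, those with set roles, and up to 3 rises and 3 falls at 500 nM per other list. Of the other lists, 2 ribosome biogenesis factors, 1 translation factor and 2 respiratory chain genes had a mean under 10, and 3 RNA polymerase I genes were not found under their symbols.

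Positions, lengths and overlaps came from GENCODE release 44 on GRCh38, and near-identical loci from minimap2 2.31-r1302. Alternatives were pseudocounts of 0.5 and 5, no filter or a mean of at least 50, TMM scaling, equal library totals, count tests on the recovered reads (edgeR quasi-likelihood, DESeq2), the replicate number as a block, fits on the compared groups alone, removal of the length and GC trend (splines of 4 degrees of freedom, 93.8% of tested genes), members with expressed near-identical genes left out, and each library left out. The treated-only slope without 0.5 nM replicate 2 and the alternatives for the ribosome biogenesis list were chosen after seeing the data. Tools were Python 3.11.15 and R 4.3.3 with DESeq2 1.42.0, edgeR 4.0.16 and limma 3.58.1.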

Additional observations from a re-analysis of the deposited data

How the results depend on the processing

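Over the alternatives that give them, the members' medians ranged from 0.078 to 0.20 at 0.5 nM and from 0.021 to 0.079 at 5 nM. At 50 nM they ranged from -0.022 to 0.026 and at 500 nM from -0.0099 to 0.028. The low end at 0.5 nM, 0.078, was reached without replicate 2 of that dose, so the median there depended on that library. Counts of called members moved at 4 comparisons. At 0.5 nM the count of 0 became 1 with TMM scaling, 1 with the same total per library, 9 with DESeq2, 2 with the replicate block and 3 with the length and GC trend removed, and ranged from 0 to 13 with 1 library left out. At 500 nM the count of 1 became 0 with no filter on low genes and 2 with only the groups compared (RPL22L1 beside RPL7L1), and ranged from 0 to 1 with 1 library left out. From 5 to 50 nM the count of 0 became 2 with the length and GC trend removed and ranged from 0 to 1. For the slope the count of 1 rise became 0 with no filter, 10 falls over the 12 treated libraries, 1 fall over those without 0.5 nM replicate 2, and 2 (1 rise, RPL7L1, and 1 fall, RPL39L) with the length and GC trend removed, and ranged from 0 to 1. The replicate numbers do not pair the samples: over tested genes the deviations of same-numbered libraries correlated between -0.085 and 0.096, and the block changed no count of members but that at 0.5 nM. Of these alternatives, shares of all tested genes are given above for the treated-only slopes and for 3 fits at 0.5 nM. Those 3 are DESeq2, the length and GC trend removed, and replicate 3 left out. The other counts have no such share beside them and show only how the members' own calls moved. The cause of these moves was not tested. The SE of a member at 500 nM had a median of 0.064 and was 0.13 for RPL22L1, one of the members with the fewest counts, and a change smaller than a member's own interval cannot be seen.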
